A study of Mus musculus with 20 samples.

Results

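The nuclear genes of respiratory complexes II to V were followed in mouse kidney tumours treated with a hydrogen sulfide donor, an antibody against PD1, both or neither. Members were chosen by gene name: Sdha to Sdhd, names starting with Uqcr, Cyc1, Cycs, the Cox4i, Cox5, Cox6, Cox7 and Cox8 genes, and names starting with Atp5, without pseudogenes marked -ps. Of 50 matching names, 47 reached at least 1 TPM in at least 5 of 20 libraries and are the members, among 15422 genes that passed the same filter and 34234 in the table. TPM gives the share of a gene among all transcripts of a library, corrected for length and scaled to a fixed total. The members are 4 genes of complex II, 9 of complex III, the cytochrome c gene Cycs, 16 of complex IV and 17 of complex V. Cox6b2, Cox7b2 and Cox8c did not pass. Just inside the filter stood Cox8b, with 1 TPM or more in 6 libraries, and Cox4i2 in 7, and just outside it Cox6b2 in 4.

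Complex II (succinate dehydrogenase) and complex III pass electrons from succinate and ubiquinol to cytochrome c, complex IV (cytochrome c oxidase) passes them to oxygen, and complex V (ATP synthase) uses the resulting proton gradient to make ATP. Apart from complex II, each contains core subunits encoded in mitochondrial DNA, and all the others are made from nuclear genes and imported. Sulfide bears on this chain in opposite ways: sulfide quinone oxidoreductase feeds electrons from sulfide into ubiquinone, while sulfide at higher concentration inhibits cytochrome c oxidase. Several complex IV subunits come in tissue forms, such as Cox6a2, Cox7a1 and Cox8b of heart, skeletal muscle and brown fat, and Cox4i2, known from lung and from responses to low oxygen.

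Bulk RNA was measured in 20 libraries of tumours grown in mice from MSRT1, a mouse cell line labelled as renal medullary carcinoma, in 4 groups of 5. Veh_IgG received vehicle and control IgG, GYY_IgG received GYY4137 (a slow-release hydrogen sulfide donor) and IgG, Veh_PD1 received vehicle and anti-PD1, and GYY_PD1 received GYY4137 and anti-PD1. All tumours thus come from 1 line and every group carries an antibody and either donor or vehicle. Strain, age, dose and treatment time are not given in the sources used here. The labels call the 5 libraries of a group biological replicates.

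The deposited TPM were compared after the median log2 TPM of all tested genes had been subtracted in each library, so that a level is stated on the log2 scale relative to that library's typical gene. This was needed because 13 satellite-like gene models, whose transcripts repeat like satellite DNA, took between 1.63% and 83.4% of a library's TPM. They took 3.53 to 13.2% in Veh_IgG, 5.86 to 54.9% in GYY_IgG, 1.63 to 59.6% in Veh_PD1 and 25.8 to 83.4% in GYY_PD1. Genes at 1 TPM or more numbered 11517 to 15162 in 18 of the libraries, 8198 in GYY_PD1 replicate 1 and 6659 in GYY_PD1 replicate 4. The first of these also stood apart in gene order, with a median Spearman correlation to the other libraries of 0.389, against 0.803 in replicate 4 and 0.854 to 0.929 in the rest. Its column label, like that of GYY_IgG replicate 5, carries a number far from the run that the other libraries share. What these numbers stand for is not given in the labels. The tumour markers Krt8 and Pax8 were detected in every library, at 8.23 to 370 TPM and 2.21 to 59.8 TPM. The same marker list also held Pou5f1, which was under 1 TPM in every library. Smarcb1, which renal medullary carcinoma typically lacks, stood at 1.17 to 46.6 TPM, in tissue that also holds host cells.

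In untreated tumours the members were among the more abundant transcripts. In Veh_IgG, 21 of the 47 averaged at least 100 TPM, 20 lay between 10 and 100 TPM and 6 were below 10 TPM. The median member ranked at the 95.2nd to 95.8th percentile of tested genes in the 5 Veh_IgG libraries. The highest was Atp5b, the catalytic beta subunit of ATP synthase, at 335 ± 84.3 TPM (SD, n = 5). Cox4i1, the ubiquitous form of complex IV subunit 4, followed at 287 ± 35.5 TPM and Atp5g3, a gene of the ATP synthase c ring, at 281 ± 43.0 TPM, both within the SD of Atp5b. The c ring protein is encoded by 3 genes, and Atp5g2 and Atp5g1 stood at 114 ± 21.7 and 27.6 ± 10.5 TPM. Complex II genes were lower, from 97.6 ± 25.1 TPM for the iron-sulfur subunit Sdhb to 36.0 ± 10.9 TPM for the flavoprotein Sdha. Cycs, the mobile electron carrier, averaged 12.6 ± 1.33 TPM. At the bottom were Cox8b and Cox4i2, at 0 to 1.30 TPM and 0 to 1.24 TPM in the 5 libraries.

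The order of the member levels was similar across the study, apart from 1 library. Spearman's rho between a library's 47 member levels and the Veh_IgG medians, which include the Veh_IgG libraries themselves, was 0.935 to 0.998 in 19 libraries and 0.673 in GYY_PD1 replicate 1. In that library Cox6c made up 21.9% of the summed member TPM, against 2.38 to 6.11% elsewhere, and Atp5j made up 14.4%, against 2.97 to 4.41%. Sdha and Atp5mpl were listed at 0 there, while in the other 19 libraries Sdha was at 2.26 to 56.5 TPM and Atp5mpl at 7.20 to 178 TPM. Its 47 members summed to 199 TPM, compared with 322 TPM in replicate 4 and 1511 to 5842 TPM in the other 18 libraries.

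**Figure D1:**
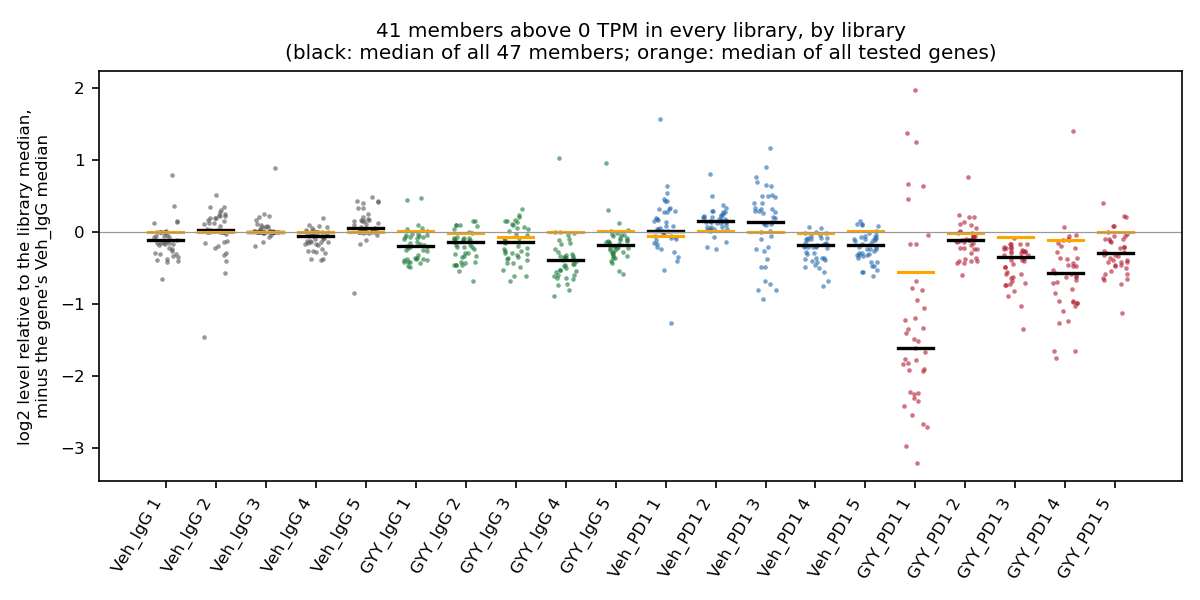
Level of each member per library, as log2 relative to the library median minus the same gene's Veh_IgG median; points are the 41 members never listed at 0, black lines the median of all 47 members and orange lines the median of all 15422 tested genes. The members lie below 0 in most GYY_IgG and GYY_PD1 libraries, with medians from -0.39 to -0.14 and from -1.62 to -0.11, and spread most widely in GYY_PD1 replicate 1. Medians are also below 0 in Veh_PD1 replicates 4 and 5 (-0.19 and -0.18) and in Veh_IgG replicates 1 and 4 (-0.12 and -0.06).

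With both treatments, members were lower than in untreated tumours by a median of 0.56 on the log2 scale, but none passed the test. In GYY_PD1 against Veh_IgG, 42 of 47 members lay below 0 (median -0.56), beside a median of -0.17 and 62.4% below 0 for all tested genes. No member, and 0 of 15422 genes, had an adjusted p under 0.05 (limma with Benjamini-Hochberg adjustment over all tested genes). At an unadjusted p under 0.05, 26 members were lower, against 11.4% of all genes, and 1 was higher, Cox4i2, against 5.50% of all genes. In 5 members every GYY_PD1 library lay below every Veh_IgG library, against 1.63% of all genes: Uqcr11, Uqcrfs1, Cox6a1, Cox8a and Atp5l. In bulk tissue, fewer cells of a type and less RNA per cell cannot be told apart.

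The upstream sequences of these 5 genes are shown because they are the members whose combination and untreated libraries did not overlap, and because nuclear respiratory genes are known for binding sites of NRF1 and of the ETS factor GABP. RefSeq on GRCm38.p6 gave a start for 35 of the 47 members. The bases before each gene start, which lies on the minus strand in all 5, run 5′ to 3′ and stop before the further upstream of the RefSeq and GENCODE M21 starts. Capitals mark NRF1 motifs (GCGC, any 2 bases, GCGC) and ETS motifs (CCGGAAG, or CTTCCGG on the other strand).
Uqcr11, chr10:80406831-80407071: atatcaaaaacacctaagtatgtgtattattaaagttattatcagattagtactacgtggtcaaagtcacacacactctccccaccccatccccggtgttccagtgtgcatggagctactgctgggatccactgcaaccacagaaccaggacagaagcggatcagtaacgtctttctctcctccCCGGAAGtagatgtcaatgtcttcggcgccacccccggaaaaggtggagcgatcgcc
Uqcrfs1, chr13:30545363-30545566: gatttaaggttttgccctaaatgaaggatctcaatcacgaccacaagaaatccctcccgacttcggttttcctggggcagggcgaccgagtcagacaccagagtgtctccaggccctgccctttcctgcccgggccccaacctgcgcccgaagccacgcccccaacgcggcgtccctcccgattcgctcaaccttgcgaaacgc
Cox6a1, chr5:115348982-115349208: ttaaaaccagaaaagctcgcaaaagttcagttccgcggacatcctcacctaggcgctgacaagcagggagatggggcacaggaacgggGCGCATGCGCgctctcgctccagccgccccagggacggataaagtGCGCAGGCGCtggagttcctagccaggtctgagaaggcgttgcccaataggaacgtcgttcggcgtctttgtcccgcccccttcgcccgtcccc
Cox8a, chr19:7217617-7217866: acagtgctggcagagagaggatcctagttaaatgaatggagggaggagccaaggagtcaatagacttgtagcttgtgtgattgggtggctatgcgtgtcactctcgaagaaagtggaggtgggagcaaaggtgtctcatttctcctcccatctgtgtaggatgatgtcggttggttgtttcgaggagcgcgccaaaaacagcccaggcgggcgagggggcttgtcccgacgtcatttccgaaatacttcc
Atp5l, chr9:44920743-44920992: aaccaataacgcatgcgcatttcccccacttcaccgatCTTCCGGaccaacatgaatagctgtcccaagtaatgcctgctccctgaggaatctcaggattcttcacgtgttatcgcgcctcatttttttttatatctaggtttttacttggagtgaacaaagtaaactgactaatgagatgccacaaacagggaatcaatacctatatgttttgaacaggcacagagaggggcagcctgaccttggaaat

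Counted from the RefSeq start, Cox6a1 held 2 NRF1 motifs, at -162 to -153 and -117 to -108, and a further ETS motif on the other strand at -16 to -10, past the stretch shown. Uqcr11 held an ETS motif at -66 to -60 and Atp5l held one at -212 to -206, while the windows of Uqcrfs1 and Cox8a had neither. Over the 250 bases before each start, searched on both strands, the NRF1 letters were in 18.4% of 38 member windows and in 4.98% of all 32851 windows. The ETS letters were in 23.7% and 6.91%. Motifs for the receptor ESRRA (AAGGTCA) and for YY1 (AAGATGG) were in 5.26% and 2.63% of member windows, against 4.08% and 4.49% of all windows. The search allowed motifs to overlap, and a match describes the letters only.

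Complex II genes had a median difference of -0.67 between the combination and untreated tumours, and 3 of 4 were lower at an unadjusted p under 0.05. Sdhb, which holds the iron-sulfur clusters, was at 3.55, 3.32, 3.54, 3.24 and 3.70 on the relative log2 scale in Veh_IgG and at 1.00, 3.44, 2.96, 2.85 and 3.28 in GYY_PD1. The groups overlapped, and replicate 1 was far below the rest. The difference was -0.77 (SE 0.31, limma adjusted p = 0.259), and -0.25 without GYY_PD1 replicates 1 and 4. The membrane anchors Sdhd and Sdhc differed by -0.58 and -0.44, and by -0.44 and -0.18 without those libraries. Sdha, the succinate-oxidising subunit, was at 52.2, 21.6, 33.6, 36.0 and 36.6 TPM in Veh_IgG and at 0, 17.9, 23.1, 2.26 and 18.9 TPM in GYY_PD1. Its fitted difference of -2.16 (SE 1.34) rested on the library at 0 and was -0.05 without replicates 1 and 4.

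All 9 complex III genes were below 0, with a median of -0.63, and 7 of them at an unadjusted p under 0.05. Uqcr11, a small accessory subunit, was at 3.38, 3.56, 3.45, 3.44 and 3.88 in Veh_IgG and at 1.77, 3.33, 3.09, 2.42 and 2.81 in GYY_PD1 (relative log2 levels). The highest GYY_PD1 library stood just below the lowest Veh_IgG library. The difference was -0.86 (SE 0.21), or 1.81-fold lower, with a limma adjusted p of 0.194; without replicates 1 and 4 it was -0.47.

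Uqcrfs1, the Rieske iron-sulfur protein that takes electrons from ubiquinol, was at 1.49, 1.64, 1.73, 1.66 and 1.71 in Veh_IgG and at -1.31, 1.23, 1.45, 1.05 and 1.20 in GYY_PD1. All 5 combination libraries were low, and replicate 1 lay far below the others. The difference was -0.93 (SE 0.35, adjusted p = 0.257) and -0.36 without replicates 1 and 4. Cyc1, the cytochrome c1 subunit, differed by -0.46 (SE 0.14, adjusted p = 0.226) and hardly moved without the 2 libraries, at -0.43. Uqcrq, Uqcrh and Uqcrb, small subunits of the complex, differed by -0.59, -0.63 and -0.74, and by -0.52, -0.23 and -0.09 without replicates 1 and 4. Cycs itself differed by -0.26 (SE 0.18, adjusted p = 0.411), and by -0.17 without those libraries.

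Complex IV members were less uniform, with a median of -0.36, 13 of 16 below 0 and 6 lower at an unadjusted p under 0.05. Cox8a, the ubiquitous form of subunit 8, was at 4.37, 4.23, 4.58, 4.44 and 4.36 in Veh_IgG and at 3.18, 3.97, 4.07, 4.09 and 3.87 in GYY_PD1. Every combination library was below every untreated one. The difference was -0.56 (SE 0.17, adjusted p = 0.231) and -0.42 without replicates 1 and 4. Cox6a1, the ubiquitous form of subunit 6a, was at 4.48, 4.48, 4.74, 4.43 and 4.53 in Veh_IgG and at 1.28, 4.39, 3.93, 3.52 and 4.09 in GYY_PD1. Replicate 2 came close to the lowest untreated library. The difference of -1.09 (SE 0.39, adjusted p = 0.243) was -0.40 without replicates 1 and 4. Cox4i1 differed by -0.66 and Cox7a2, the ubiquitous form of subunit 7a, by -0.82, with adjusted p of 0.285 and 0.231; without the 2 libraries they differed by -0.26 and -0.41. Cox6c2, which GENCODE M21 annotates as a processed pseudogene on chromosome 12 and whose reads may be shared with Cox6c, was listed at 0 in 7 of 20 libraries.

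Complex V had a median of -0.55, with 15 of 17 members below 0 and 10 lower at an unadjusted p under 0.05. Atp5l, which encodes subunit g in the membrane part of the enzyme, was at 1.25, 1.58, 1.42, 1.24 and 1.53 in Veh_IgG and at -0.10, 0.81, 0.07, -0.23 and 0.30 in GYY_PD1. The combination libraries were all low and replicate 1 was not the lowest. The difference was -1.23 (SE 0.23), or 2.35-fold lower, and its limma adjusted p of 0.0869 was the smallest of any member. Ranked by p, Atp5l was 7 of 15422 genes. Without replicates 1 and 4 it differed by -1.01 (SE 0.25, adjusted p = 0.288). Over 35 alternatives its limma adjusted p ranged from 0.0236 to 0.289 and was under 0.05 in 5: on the deposited scale, with no filter (0.0488), and at 0.0440 with a replicate block, 0.0387 without Veh_PD1 replicate 1, a library outside the comparison that enters the pooled spread, and 0.0372 with a pseudocount of 1 TPM.

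Of the c ring genes, Atp5g1 was at 1.89, 1.54, 1.39, 1.17 and 2.03 in Veh_IgG and at -0.76, 1.17, 0.51, -0.21 and 1.49 in GYY_PD1, and these ranges overlapped. It differed by -1.17 (SE 0.32, adjusted p = 0.209), and by -0.55 without replicates 1 and 4. Atp5g2 and Atp5g3 differed by -0.50 and -0.47, and by -0.18 and -0.15 without replicates 1 and 4. Atp5b, despite the highest level, differed by -0.52 (SE 0.22), with -0.19 without the 2 libraries. Atp5e, the epsilon subunit of the central stalk, and Atp5f1, the peripheral stalk subunit b, differed by -0.78 and -0.55, and by -0.59 and -0.30 without them. Atp5j and Atp5s were above 0, at 0.09 and 0.02, but below 0 without replicates 1 and 4, at -0.07 and -0.12. Atp5mpl, a small membrane subunit, was listed at 0 in GYY_PD1 replicate 1 and at relative log2 levels of 4.05, 3.62, 3.19 and 3.54 in the others. Replicate 2 lay within the Veh_IgG range of 3.76 to 4.24.

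**Figure D2:**
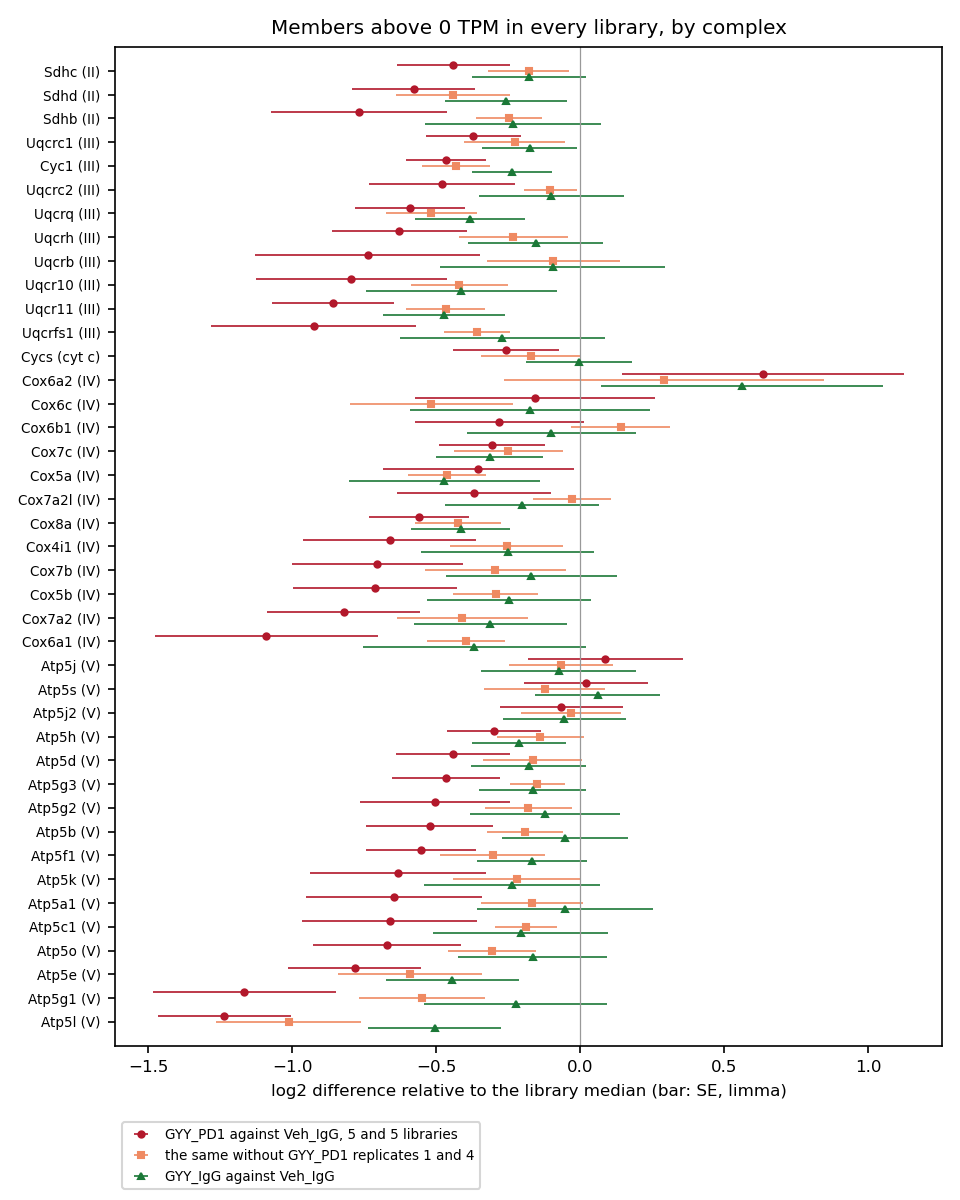
Log2 difference of the 41 members never listed at 0, by complex (name in brackets), with SE from limma; red circles compare GYY_PD1 with Veh_IgG, orange squares the same without GYY_PD1 replicates 1 and 4, and green triangles GYY_IgG with Veh_IgG, so all 3 share the Veh_IgG libraries. Most circles lie left of 0 and Atp5l lies furthest, at -1.23, while most squares lie closer to 0.

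Leaving out GYY_PD1 replicates 1 and 4 brought the members' median to -0.25, with 43 of 47 below 0, beside -0.04 and 57.1% below 0 for all tested genes. In that fit 13 members were lower at an unadjusted p under 0.05, against 4.92% of all genes, and none had an adjusted p under 0.05 (limma). The member share of the TPM of 18684 nuclear protein-coding genes was 1.36, 1.63, 1.51, 1.46 and 1.57% in Veh_IgG and 0.379, 1.40, 1.20, 1.10 and 1.33% in GYY_PD1, so GYY_PD1 replicate 2 lay within the untreated range. On the deposited scale, with no centring, 42 members were called lower, beside 70.2% of all genes called there; the medians were -2.47 for members and -2.09 for all genes. The satellite-like share moved with the groups, and its part in the result was not tested.

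With GYY4137 alone, members were lower than in untreated tumours by a median of 0.18 on the log2 scale. In GYY_IgG against Veh_IgG, 42 of 47 lay below 0, beside a median of -0.01 and 52.1% below 0 for all genes. None passed the adjusted threshold, like all other genes (limma). Lower at an unadjusted p under 0.05 were 3 members, Uqcr11, Cox8a and Atp5l, against 0.622% of all genes. With GYY_PD1 replicates 1 and 4 left out of the pooled spread, 11 members were, against 2.36% of all genes, again with none past the adjusted threshold. In 5 members every GYY_IgG library lay below every Veh_IgG library, against 0.454% of all genes: Uqcr11, Cox5a, Cox5b, Cox6a1 and Cox8a. Of these, 4 belong to complex IV, which holds 16 of the 47 members. The median differences by complex were alike, at -0.20 in II, -0.24 in III, -0.22 in IV and -0.17 in V. Below 0 were 4 of 4 members of complex II, 9 of 9 of III, 12 of 16 of IV and 16 of 17 of V.

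Uqcr11 was at 3.04, 3.02, 3.08, 3.01 and 3.20 in GYY_IgG, a narrow range below its untreated minimum of 3.38. The difference was -0.47 (SE 0.21, limma adjusted p = 0.9999). Cox8a was at 4.00, 3.96, 3.94, 3.91 and 4.09, all under the untreated minimum of 4.23, and differed by -0.41 (SE 0.17). Cox5a, a matrix-side subunit of complex IV, was at 2.52, 2.44, 2.28, 2.26 and 2.56 in GYY_IgG, against 2.84, 2.90, 2.90, 2.73 and 3.05 in Veh_IgG. It differed by -0.47 (SE 0.33). The combination libraries, which enter the pooled spread, had Cox5a at 4.14, 2.52, 2.17, 1.24 and 2.58, and without replicates 1 and 4 it differed by -0.46 (SE 0.14, adjusted p = 0.405) between GYY_PD1 and Veh_IgG. Cox6a1 and Cox5b, a zinc-binding subunit, differed by -0.37 (SE 0.39) and -0.25 (SE 0.28) in GYY_IgG. Atp5l was at 0.98, 1.33, 0.73, 0.61 and 0.84, overlapping with Veh_IgG through replicate 2, and differed by -0.50 (SE 0.23). The satellite-like share in GYY_IgG was 10.1, 11.1, 54.9, 44.1 and 5.86%, and its part in these differences was not tested.

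**Figure D3:**
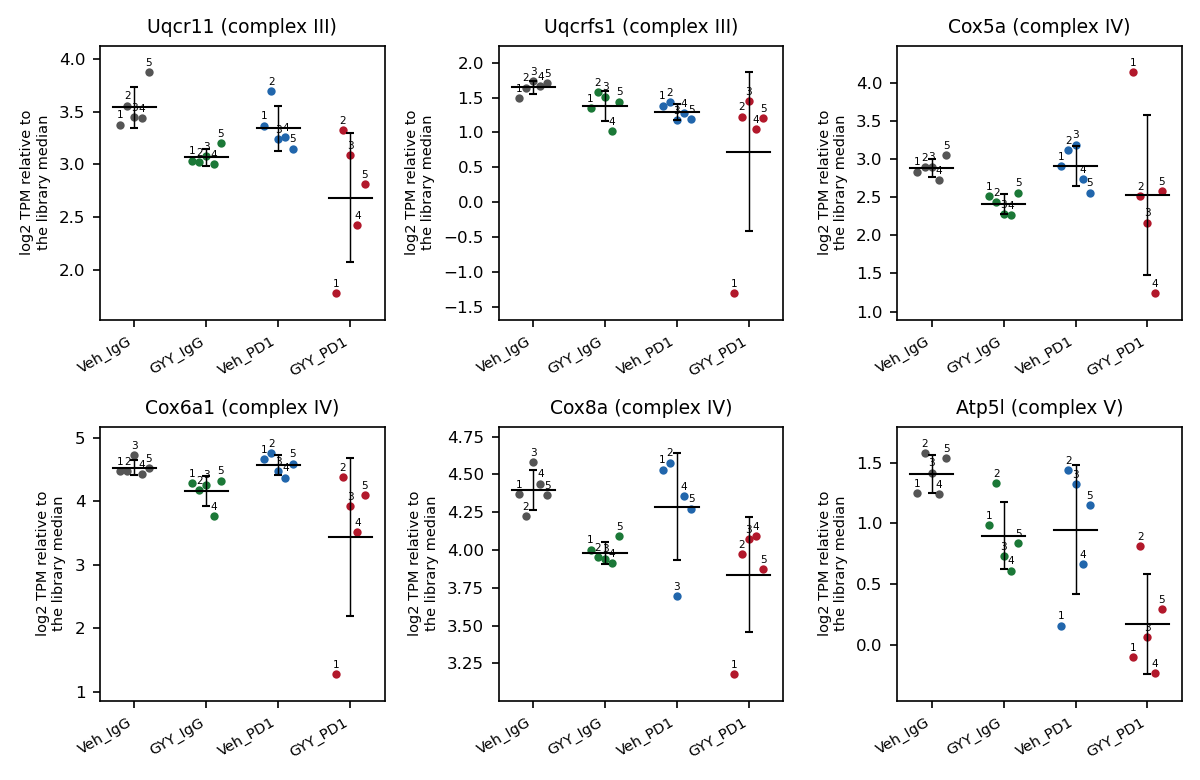
Relative log2 level of 6 members in each library (numbers are replicates), with the group mean as a line and the SD as a bar, n = 5. Uqcr11, Cox5a, Cox6a1 and Cox8a have all 5 GYY_IgG libraries below all 5 Veh_IgG libraries, and GYY_PD1 replicate 1 is the lowest library for Uqcr11, Uqcrfs1, Cox6a1 and Cox8a but the highest for Cox5a.

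With anti-PD1 alone, the members showed no common direction: 23 were higher and 24 lower than in Veh_IgG, with a median of -0.01. No member had an adjusted p under 0.05 (limma), and none was lower at an unadjusted p under 0.05, against 0.999% of all genes. Uqcrfs1 was the 1 member whose Veh_PD1 libraries, at 1.38, 1.43, 1.18, 1.27 and 1.19, all lay below Veh_IgG, against 0.324% of all genes; it differed by -0.36 (SE 0.35). The smallest p values belonged to Atp5l (-0.46, SE 0.23), Cyc1 (-0.22, SE 0.14) and Cox4i2 (1.82, SE 1.23), each with an adjusted p of 0.9999.

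Adding GYY4137 to anti-PD1 gave lower members, by a median of 0.51 on the log2 scale. In GYY_PD1 against Veh_PD1, 43 of 47 were below 0, beside a median of -0.12 over all genes. None of the members passed the adjusted threshold, which 0.00648% of all genes did, that is 1 gene. At an unadjusted p under 0.05, 20 members were lower, against 8.42% of all genes, and 1 was higher, Cox8b, against 4.47%; it passed the filter on low values only with the help of GYY_PD1. No member had groups that did not overlap, against 0.687% of all genes with the combination lower. Uqcrh, the acidic hinge subunit of complex III, was at 3.75, 3.72, 3.92, 3.22 and 3.44 in Veh_PD1 and at 1.94, 3.33, 3.34, 2.45 and 2.88 in GYY_PD1. It differed by -0.82 (SE 0.23, limma adjusted p = 0.325), and by -0.43 without replicates 1 and 4. Atp5f1 and Atp5l differed by -0.66 and -0.78, and by -0.41 and -0.55 without those libraries. The members' median without them was -0.26, with 11 lower at an unadjusted p under 0.05, against 5.11% of all genes.

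Adding anti-PD1 to GYY4137 gave a median of -0.38, with 39 of 47 below 0, beside -0.17 for all genes. In GYY_PD1 against GYY_IgG, no member passed the adjusted threshold (limma), and 3 were lower at an unadjusted p under 0.05, Atp5l, Atp5g1 and Atp5b, against 6.92% of all genes. They differed by -0.73, -0.94 and -0.47, and by -0.51, -0.32 and -0.14 without GYY_PD1 replicates 1 and 4. No member had non-overlapping groups, against 0.532% of all genes with the combination lower. Without replicates 1 and 4 the median was -0.03, with 32 of 47 below 0, beside -0.02 and 54.8% below 0 for all genes. No member was then lower at an unadjusted p under 0.05, against 2.28% of all genes. The interaction, which asks whether the effect of GYY4137 differs with the antibody, was below 0 in 43 of 47 members, with a median of -0.31. The share of all genes below 0 is not given for the interaction, so this count is not read as particular to the members. No member had an unadjusted p under 0.05, where 232 of 15422 genes were lower and 144 higher. The median interaction without GYY_PD1 replicates 1 and 4 was -0.02, with 25 of 47 members below 0. Uqcrh (-0.67, SE 0.33), Atp5f1 (-0.49, SE 0.27) and Atp5g1 (-0.78, SE 0.45) had the smallest p values, each with an adjusted p of 0.875.

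Of the 5 members above 0 in GYY_PD1 against Veh_IgG, 3 were tissue forms of complex IV subunits: Cox4i2, Cox8b and Cox6a2. Their levels are given as TPM rescaled so that the nuclear protein-coding genes alone make up the usual TPM total. Cox4i2 was at 2.88, 0, 1.46, 1.28 and 2.99 in Veh_IgG, at 2.19, 3.78, 4.82, 7.95 and 2.99 in GYY_IgG, at 2.85, 1.88, 1.52, 6.52 and 1.31 in Veh_PD1 and at 9.77, 3.29, 3.30, 10.4 and 6.58 in GYY_PD1. All 5 combination libraries were above all 5 untreated ones on this scale, by 3.29 against 2.99 where they came nearest. The 2 highest combination libraries were replicates 1 and 4. Relative to the library median the groups overlapped. As deposited, Cox4i2 was at most 1.48 TPM in any library. How many of all genes separate on the rescaled values was not counted, so this separation is only a description. The difference in log2(value + 1) was 1.52 (SE 0.46, limma adjusted p = 0.284), and 1.09 (SE 0.50) without replicates 1 and 4. Relative to the library median it was 3.37 (SE 1.23, adjusted p = 0.245), 1.75 without the Veh_IgG library listed at 0 and 2.61 without GYY_PD1 replicates 1 and 4.

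Cox8b was at 3.03, 0, 0, 1.17 and 1.30 in Veh_IgG, at 0.778, 3.15, 6.87, 0 and 2.95 in GYY_IgG, at 0, 0.719, 0, 4.61 and 0 in Veh_PD1 and at 0, 9.11, 18.4, 15.8 and 7.49 in GYY_PD1. The 4 combination libraries with any Cox8b were above all 15 libraries of the other groups. Cox8b reached 1 TPM in 6 libraries, 3 of them GYY_PD1, so it passed the filter only with the group where it is high, and its levels are given as a description. As deposited, these levels were 2.04, 3.56, 0.46 and 1.22 TPM, near the bottom of the table. Fat markers summed to 102 to 4702 rescaled TPM in GYY_PD1, with 4702 in replicate 3, the library with the most Cox8b, and to 22.0 to 304 in Veh_IgG. The brown fat marker Ucp1 was at most 0.274 TPM in any library. Skeletal muscle markers summed to 15.1 to 69.3 (median 43.7) in GYY_PD1 and to 7.84 to 702 (median 9.40) in Veh_IgG. Heart markers summed to 7.14 to 29.5 (median 15.7) in GYY_PD1 and to 3.58 to 10.1 (median 8.57) in Veh_IgG. The part of other tissue in Cox8b was not tested.

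Cox6a2, the muscle form of subunit 6a, had a mean of 17.1 ± 10.3 in untreated tumours and of 22.2 ± 13.4 with the combination (SD over 5 libraries, rescaled TPM), a difference smaller than either SD. Cox7a1 was at 13.3 to 46.6 in Veh_IgG, with 46.6 in replicate 2, and at 5.72 to 38.6 in GYY_PD1, so these ranges overlapped.

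**Figure D4:**
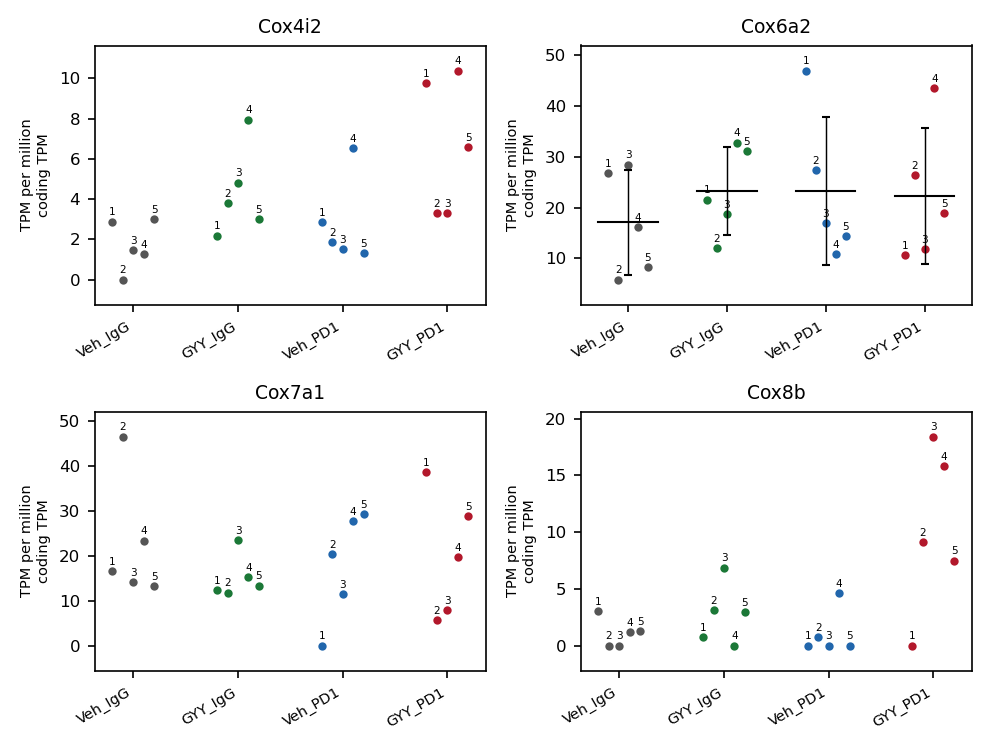
TPM rescaled to the nuclear protein-coding genes, for 4 complex IV isoform genes in each library (numbers are replicates); Cox6a2 has mean and SD (n = 5), and the other 3, which are listed at 0 in at least 1 library, have points only. GYY_PD1 replicates 2 to 5 have the highest Cox8b levels of the study, at 7.49 to 18.4.

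Ratios within a library do not depend on its scaling, and 7 pairs of alternative subunits were compared in the 5 contrasts between groups. None of the 35 exact permutation tests (two-sided, 5 against 5 libraries, smallest possible p 0.00794) passed after Benjamini-Hochberg adjustment, where the smallest adjusted p was 0.231. Unadjusted, 6 were under 0.05. One of these 6 was Cox8b over Cox8a in GYY_PD1 against Veh_PD1, with a difference of 5.95 (exact permutation p = 0.0397). Cox8b passed the filter only with GYY_PD1, where it is high, so the tests of this pair are only a description. The log2 ratio of Cox4i2 over Cox4i1 was -3.10, -7.98, -7.50, -6.05 and -6.94 in GYY_PD1 and -7.89, -17.1, -9.26, -9.25 and -8.18 in Veh_IgG, where the value of -17.1 stems from a Cox4i2 listed at 0. The 2 groups overlapped through GYY_PD1 replicate 2 (exact permutation p = 0.0159), and the difference of 4.03 was 2.87 without GYY_PD1 replicates 1 and 4. Cox7a2l, linked to the assembly of supercomplexes, over Cox7a2 was -0.05, 0.23, 0.62, 1.13 and 0.23 in GYY_PD1 and 0.20, -0.19, -0.02, -0.06 and -0.04 in Veh_IgG. This mean difference of 0.45 had an exact permutation p of 0.0317. Atp5g1 over Atp5g3 averaged -4.12 ± 0.52 in GYY_PD1 and -3.51 ± 0.17 in Veh_PD1 (exact permutation p = 0.0317), a difference of -0.61 that was -0.31 without GYY_PD1 replicates 1 and 4.

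The partners and neighbours of the members were read from fixed lists in GYY_PD1 against Veh_IgG. The 6 mitochondrially encoded subunits of complexes III to V all lay below 0, with a median of -0.62, and 2 were lower at an unadjusted p under 0.05, against 11.4% of all genes: mt-Co2 (-0.53, SE 0.22) and mt-Co3 (-1.13, SE 0.52), the core subunits 2 and 3 of complex IV. Without GYY_PD1 replicates 1 and 4 they were at -0.24 and -0.88, and mt-Co3 was at -0.70 without Veh_IgG replicate 4, which stood at 3.98 against 1.37 to 2.28 in the other untreated libraries. mt-Atp8, an ATP synthase subunit, was listed at 0 in GYY_PD1 replicate 1. Nuclear complex I genes had a median of -0.39, with 34 of 38 below 0, and the 11 enzymes of the tricarboxylic acid cycle outside complex II one of -0.43, with all 11 below 0. Assembly factors of complexes II to V stood nearer to the rest of the genes, with a median of -0.18 and 22 of 34 below 0. In this list, 5 of 34 were lower at an unadjusted p under 0.05, near the 11.4% of all genes. Without GYY_PD1 replicates 1 and 4, however, the cycle enzymes lay between -0.18 and -0.0010, with a median of -0.11. The assembly factors in the middle of their list were then at -0.15 and -0.13. They were thus no nearer to the rest of the genes, whose median was -0.04. Tmem70, an ATP synthase assembly factor, was at -0.55 (SE 0.17) and Coa3, of complex IV assembly, at -0.49 (SE 0.16), and at -0.30 and -0.39 without GYY_PD1 replicates 1 and 4.

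The 11 regulators of respiratory genes had a median of 0.14, with 6 above 0. Without GYY_PD1 replicates 1 and 4 their median was -0.03, beside -0.04 for all tested genes. The mitochondrial transcription factor Tfam was at -0.45 (SE 0.19) and the coactivator Pprc1 at 0.49 (SE 0.19), with adjusted p of 0.276 and 0.257, and at -0.21 and 0.22 without GYY_PD1 replicates 1 and 4. Of the 4 measured sulfide oxidation enzymes, the persulfide dioxygenase Ethe1 was at -0.87 (SE 0.28, adjusted p = 0.231) and the quinone oxidoreductase Sqor at 0.31 (SE 0.34); without those libraries they were at -0.66 and 0.76, with adjusted p of 0.618 and 0.405. Atpif1, the inhibitor of ATP synthase, was listed at 0 in GYY_PD1 replicate 1 and at 3.14 to 4.24 in the other combination libraries, against 4.06 to 4.47 in Veh_IgG (relative log2 levels). No gene of these lists had an adjusted p under 0.05 (limma).

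Other cell types varied beside the members. Labelled tumour markers summed to 585 rescaled TPM in GYY_PD1 replicate 1 and to 3411 to 3932 in the other 4 combination libraries, against 2679 to 3987 in Veh_IgG. Proximal tubule markers, from a mitochondria-rich epithelium, summed to 57.8 to 526 in GYY_PD1 and 34.3 to 509 in Veh_IgG. Haemoglobin and other erythroid genes summed to 18.3 to 307 in GYY_PD1 and 409 to 1085 in Veh_IgG, T cell genes to 23.7 to 88.5 and 6.46 to 9.92, and fibroblast genes to 52.6 to 2799 and 11.1 to 421. Erythroid and T cell sums did not overlap between these groups on the rescaled values. As deposited, T cell genes summed to only 0.694 to 11.9 TPM in GYY_PD1 and 1.81 to 3.69 TPM in Veh_IgG, and these ranges overlapped. The part of cell makeup in the member levels was not tested.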

How the data were processed

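Bulk RNA-seq of 20 tumours in 4 groups of 5 was analysed from 1 table of log2 TPM for 34234 genes, as deposited by the authors, in which a TPM of 0 is written as -8.879. Per the submitters' processing notes, the tools were cutadapt, fastp, Salmon 0.14.1 and HTSeq 0.11.0, with build mm10; which of them gave the TPM is not given in the sources used here. Per the labels' protocols, RNA was harvested with QIAzol and libraries were made from cDNA with Nextera XT. TPM keep no read counts, so the depth behind each value is unknown. Columns were matched to samples by their labels, and no 2 libraries held identical values.

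Genes at 1 TPM or more in at least 5 libraries (15422) were tested. The library median of log2 TPM over these genes was subtracted, and limma 3.58.1 in R 4.3.3 fitted 1 model of the 4 groups (16 residual degrees of freedom, moderated with a trend). Benjamini-Hochberg adjustment ran over all tested genes, with a threshold of 0.05. Differences are on the log2 scale with no pseudocount, so that a value at 0 gives a large difference set by the floor; members with a 0 are given per library. Levels of low isoforms were also rescaled to 18684 nuclear protein-coding genes, without the satellite-like models and odorant receptors, and tested as log2(value + 1) in 11697 genes. Isoform ratios were tested by exact permutation (scipy 1.17.1). The fit was tested on simulated data. Gene positions came from GENCODE M21, which held 33908 of the names, and start sites from RefSeq.

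Named were, per complex, the 4 members with the smallest p and the one with the highest mean TPM for the combination against untreated tumours, the 3 with the smallest p in each other comparison, and Sdha, Sdhb, Cyc1, Cycs, Cox4i1, Cox4i2, Cox6a2, Cox7a1, Cox8b, the c ring genes and Atpif1. Other members named, such as Cox5a, Cox5b, Cox6c, Cox6c2, Cox7a2l, Atp5j, Atp5s and Atp5mpl, were chosen after their values were seen. The members and lists were chosen with earlier results of these data known. Alternatives covered scaling, pseudocount, filter, groups fitted, library weights, a replicate block and left-out libraries.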

Additional observations from a re-analysis of the deposited data

Results flagged for a closer look

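In 25 of 152 groups of 5 values, the lowest or highest library stood apart from the other 4 by more than Dixon's critical value of 0.71, which chance alone does in about 1 in 20 groups. Of these, 11 concern GYY_PD1 replicate 1, 5 GYY_IgG replicate 4, 3 each GYY_IgG replicate 3 and Veh_IgG replicate 2, 2 Veh_PD1 replicate 1 and 1 Veh_PD1 replicate 3. All levels below are relative log2 levels.

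GYY_PD1 replicate 1 was the low library for subunits of each of complexes II to V. Atp5b was at 3.65 there (4.82 to 5.15 in the other 4), Atp5g2 at 1.86 (3.45 to 3.60), Cox4i1 at 2.90 (4.46 to 5.01) and Cox6a1 at 1.28 (3.52 to 4.39). Cox8a was at 3.18 (3.87 to 4.09), Sdhb at 1.00 (2.85 to 3.44), Sdhc at 0.78 (1.83 to 1.99) and Uqcrb at 1.41 (3.42 to 4.20). Sdha and Cox8b were listed at 0, which gives -8.12 for each, and the log2 ratio of Cox8b over Cox8a was -11.29.

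In GYY_IgG replicate 4, the complex III median was 2.63 (2.98 to 3.08 in the other 4), Atp5g3 was at 4.67 (4.89 to 4.93), Cox6a1 at 3.76 (4.18 to 4.33) and Sdhd at 1.82 (2.03 to 2.10), while the log2 ratio of Atp5g2 over Atp5g3 was high at -0.99. In GYY_IgG replicate 3, the complex IV median was high at 3.61 (3.19 to 3.29), as was Cox4i1 at 5.11 (4.65 to 4.78), while Atp5b was low at 4.78 (5.22 to 5.37). These 2 libraries held the largest satellite-like shares of their group.

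Veh_IgG replicate 2 was low for Sdhc at 1.90 (2.14 to 2.24), and its Cox4i2, listed at 0, gave -11.76 and a log2 ratio over Cox4i1 of -17.12. Veh_PD1 replicate 1 had Cox7a1 listed at 0, which gave -10.41 and a log2 ratio over Cox7a2 of -14.00. In Veh_PD1 replicate 3 the log2 ratio of Atp5g2 over Atp5g3 was -2.13.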

How the results depend on the processing

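In the combination against untreated tumours, the count of called members depended on scaling, filter and pseudocount. It was 0 in the main fit and 42 on the deposited scale, where most of all tested genes were called too. With library centring kept, it was 39 with no filter, 2 with a pseudocount of 1 TPM (1 higher, 1 lower) and 1 with a replicate block. The share of all genes called is not given for no filter or the pseudocount. Those counts are therefore not read as particular to the members. Leaving out 1 library gave 0 to 1, with 1 only without Veh_PD1 replicate 1. Atp5l was the member called by the block and without that library, and with the pseudocount it was called lower and Cox8b higher. Cox8b passed the filter only with GYY_PD1, where it is high, so its call is only a description. On the deposited scale the members' median was -2.47 for the combination, -0.57 for GYY4137, -0.87 for anti-PD1, -1.56 against Veh_PD1, -1.91 against GYY_IgG and -0.98 for the interaction; with no filter these were -2.03, -0.55, -0.70, -1.28, -1.48 and -0.72. Leaving out GYY_PD1 replicates 1 and 4 together gave -0.19 after rescaling to coding genes and -0.17 when centred on the most abundant genes, where the median against GYY_IgG was -0.0024. Both of these, which change 2 choices at once, were added after seeing the data. Library weights gave -0.28 for the combination.

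Some signs reversed. Cox6a2 was at -1.28 on the deposited scale and -0.84 with no filter, Cox7a1 at 0.10 and Cycs at 0.0011 when centred on the most abundant genes, and Sdha at 0.028 on that centring without replicates 1 and 4. Cox7a1 ranged from -0.73 to 0.26 when 1 library was left out, with 0.13 without Veh_IgG replicate 2, and 0.26 and 0.16 without GYY_PD1 replicates 2 and 3. The cause was not tested. No alternative brought an isoform ratio past the threshold, but 17 of those that leave out 1 library and 7 others turned its sign. With a pseudocount of 1 TPM, Cox8b over Cox8a was at 0.74 for anti-PD1 (0.24 with 0.1 TPM) and Atp5g2 over Atp5g3 at 0.051 for the combination and 0.0033 against GYY_IgG. Without GYY_PD1 replicates 1 and 4, Cox7a1 over Cox7a2 was at -0.52 for the combination and -0.33 against GYY_IgG, and Cox6a2 over Cox6a1 at -0.24 against GYY_IgG. With 1 library left out, Cox7a1 over Cox7a2 ranged from -0.15 to 1.27 for the combination, from -0.33 to 0.012 for GYY4137 and from -2.73 to 0.030 for anti-PD1. For anti-PD1, Cox4i2 over Cox4i1 ranged from -0.022 to 2.29, Cox8b over Cox8a from -2.23 to 0.15 and Atp5g1 over Atp5g3 from -0.19 to 0.0042, with -0.16 to 0.036 for GYY4137. Atp5g2 over Atp5g3 ranged from -0.14 to 0.067 for the combination, -0.025 to 0.085 for GYY4137, -0.11 to 0.15 for anti-PD1, -0.19 to 0.11 against Veh_PD1 and -0.18 to 0.023 against GYY_IgG.

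Whether replicate numbers pair mice across groups is not given in the labels, and the main fit did not use them. Of 30 same-numbered pairs, 1 correlated above 0.1, and 7 of 20 libraries correlated best with their own number. The median correlation was 0.015 in the same-numbered pairs and -0.0091 in the 120 other pairs. The replicate block called 1 member and 3 of all genes. Unknown depth limits what can be said of isoforms near 1 TPM.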
